A study of Mus musculus with 8 samples.

Results

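Hepcidin and the genes that act around it in the liver were followed across 8 mouse livers. The group comprised 10 genes, namely the hepcidin genes Hamp and Hamp2, the ligand Bmp6, the receptors and sensors Tfr2, Hfe and Tfrc, the carrier Trf, the exporter Slc40a1 and the BMP target genes Id1 and Smad7. They were found on the array as the non-control probes whose gene name or RefSeq accession maps to one of these symbols. This gave 21 probes for 10 of the 21252 genes named on the array. All 10 were measured well above background on all 8 arrays by their brightest probe, and they were therefore among the 13913 genes tested.

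RNA came from whole livers of male mice, with 1 Agilent one-colour array per animal and 4 biological replicates in each group. The control group is described by the labels as normal mice. The other group received intraperitoneal oxaliplatin, a platinum drug given to patients with bowel cancer, every week over 6 weeks. The labels call these mice a model of sinusoidal obstruction syndrome, in which the small vessels of the liver are injured. Strain, age and dose are not given in the sources used here. In whole liver, fewer cells of a type and less RNA per cell cannot be told apart.

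Hepcidin is a small peptide hormone that hepatocytes release into the blood. It binds ferroportin, the iron exporter encoded by Slc40a1, and sends it for degradation, so that gut cells and macrophages release less iron. Transcription of Hamp is driven by BMP6, which sinusoidal endothelial cells of the liver supply, through BMP receptors, the coreceptor hemojuvelin and SMAD proteins, and during inflammation also by interleukin-6 through STAT3. HFE and transferrin receptor 2 adjust the BMP signal to the amount of iron-loaded transferrin, and ID1 and SMAD7 are made in answer to the same signal, SMAD7 as its inhibitor.

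Mice carry a pair of neighbouring hepcidin genes, and the iron-regulating hormone is the product of Hamp. In the RefSeq gene table (GRCm38.p6) Hamp2, Usf2-ps1 and Hamp follow one another on chromosome 7. Because transcripts so alike could share signal, the catalogue probes of both are shown, at the positions that the files give on build mm9, chr7:31727490-31727549 (minus strand) for Hamp and chr7:31707520-31707579 (minus strand) for Hamp2. Capitals mark the bases that differ in an ungapped alignment of the probes, which leaves out the first base of the Hamp probe and the last of the Hamp2 probe:
Hamp probe: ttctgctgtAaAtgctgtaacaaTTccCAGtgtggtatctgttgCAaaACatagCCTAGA
Hamp2 probe: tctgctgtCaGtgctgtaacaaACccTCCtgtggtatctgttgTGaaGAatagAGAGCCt
Over 59 aligned bases the probes differed at 17 and were 71.2% identical. How far one transcript gives signal on the other's probe was not tested.

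The stretch from 140 to 21 bases before the transcription start of each hepcidin gene is shown because it holds matches to the motifs of both pathways (RefSeq, GRCm38.p6). It lies at chr7:30944050-30944169 (minus strand) for Hamp and at chr7:30924202-30924321 (minus strand) for Hamp2. Capitals mark GGCGCC, the core of the BMP-responsive element described for hepcidin promoters, and TTCNNNGAA, the STAT consensus; each reads the same on both strands and the matches do not overlap:
Hamp promoter: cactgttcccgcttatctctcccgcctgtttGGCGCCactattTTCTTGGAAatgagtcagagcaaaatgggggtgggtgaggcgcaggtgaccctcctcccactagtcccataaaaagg
Hamp2 promoter: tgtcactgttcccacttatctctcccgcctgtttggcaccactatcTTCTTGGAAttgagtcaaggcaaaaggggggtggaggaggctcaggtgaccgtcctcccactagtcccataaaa
In Hamp, GGCGCC began 109 bases and the STAT match 97 bases before the start. Hamp2 had the STAT match at 94 bases and, at the aligned place, a hexamer that differed by the substitution G4A, counted from 1 at the hexamer's 5′ end with the Hamp base first. In an alignment of the 250 bases before the starts, 91.9% of the paired bases were identical between these genes, with 6 gap positions left out. GGCGCC occurred in 9.59% and TTCNNNGAA in 7.02% of 32851 such 250-base windows in the table. Of the 9 starts listed for 6 of the 10 genes, one Tfrc start also had GGCGCC, 89 bases upstream, and the starts of Tfr2, Hfe and Bmp6 had neither motif. Trf, Slc40a1, Smad7 and Id1 have no entry in the table.

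The comparison of the groups asks how liver transcripts differ in this injury model. Levels below are log2 signals relative to each array's 75th percentile, and differences are oxaliplatin minus control on the log2 scale, ± SE with n = 4 arrays per group. The test was limma with Benjamini-Hochberg adjustment over all 13913 genes and a threshold of 0.05. On each array between 27.2% and 40.9% of the 149782 probes were well above background, and the number of arrays limits the precision. Each group was hybridized and scanned on its own slide, so effects of slide or scan cannot be told apart from the group. Oxaliplatin replicates 1 and 2 are deposited under a different run name from the remaining 6 arrays. All 5 of a list of p53 target genes, which platinum damage to DNA is known to induce, were lower on the arrays labelled oxaliplatin. All 5 passed the test, where 11.6% of all genes tested passed as lower. Their mean levels were 1.04 to 2.02 on oxaliplatin and 3.64 to 4.07 on control arrays. Eda2r, 1 of the 5, was above background on 4 control and 0 oxaliplatin arrays, so the oxaliplatin means include levels not above background. Cdkn1a, Phlda3, Ccng1 and Mdm2 were above background on every array, with differences of -3.61, -3.57, -1.58 and -0.43. The lower levels of these genes go against the treatment label, so every direction here is that of the arrays as labelled. Control replicate 4 stood somewhat apart, with a median correlation across genes of 0.97 with its own group against 0.984 to 0.986 for the other 3 controls.

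Of the 10 genes, 1 rose (Trf) and 2 fell (Bmp6 and Id1) on the arrays labelled oxaliplatin. Over all genes tested 18.6% passed, 6.99% as higher and 11.6% as lower. In a group of 10 genes, 3 calls is near that background and says nothing particular about the group. The median difference of the 10 genes was -0.31, against -0.09 over all genes, and 8 of the 10 differences were below 0. With the median of all probes as the scale, which shifted the all-gene median by -0.63, Trf was at -0.05 and 7 of the 10 passed as lower. On that scale 9687 of all 13913 genes tested also passed as lower, so this count says nothing particular about the group. The groups did not overlap for Hamp, Trf, Bmp6 and Id1, which is 4 of 10, where 27.7% of all genes did not overlap. Trf alone of the 4 was apart on the higher side, as were 9.26% of all genes, and 18.4% of all genes were apart on the lower side.

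**Figure D1:**
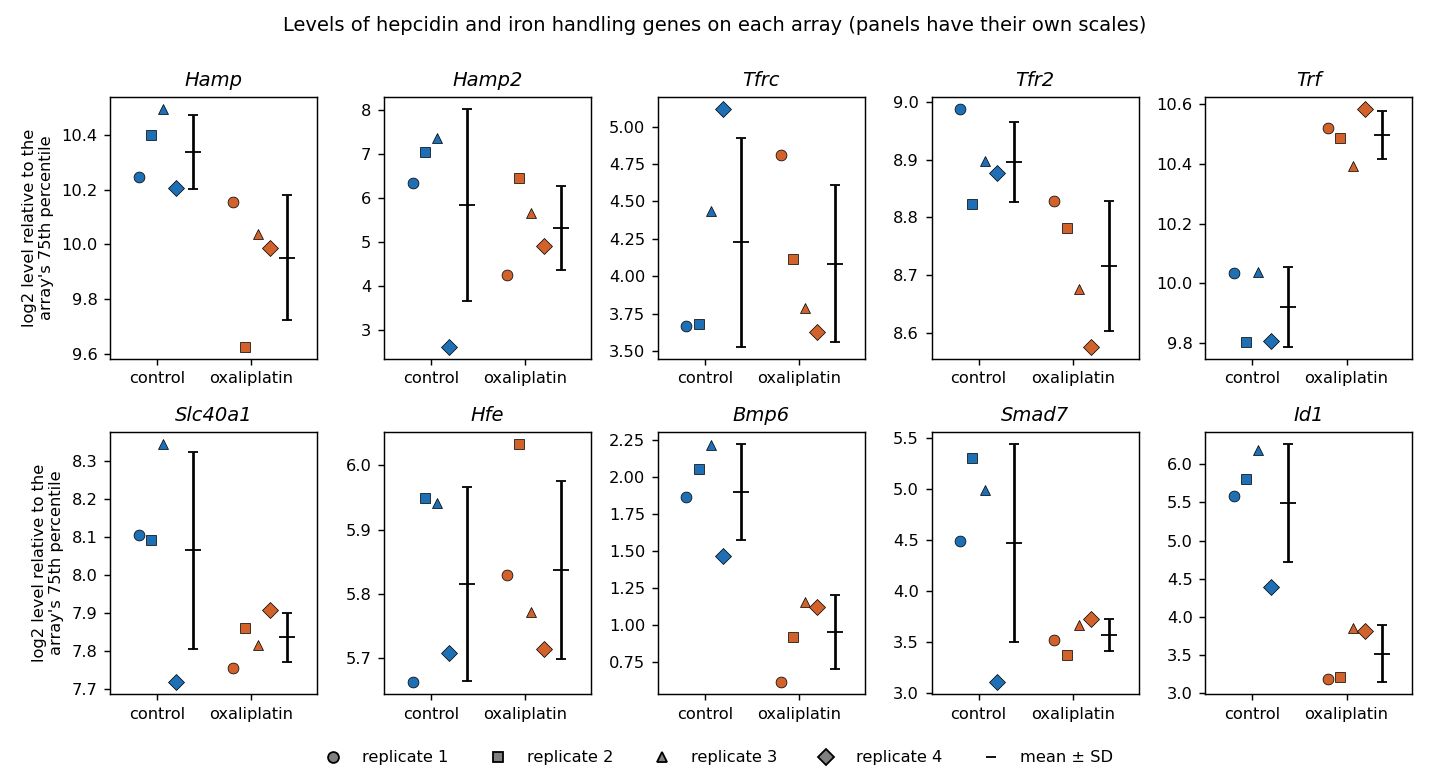
Level of each of the 10 genes on each array (vertical axis, log2 signal relative to the array's 75th percentile, a scale of its own in each panel), for 4 control and 4 oxaliplatin arrays, with the replicate number as symbol and mean ± SD as bar. The groups are apart for Hamp, Trf, Bmp6 and Id1, and control replicate 4 is the lowest control for Hamp, Hamp2, Slc40a1, Bmp6, Smad7 and Id1.

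Hamp, the hormone gene, was lower on the oxaliplatin arrays without passing the test. Its levels were 10.25, 10.40, 10.50 and 10.20 on control replicates 1 to 4 and 10.15, 9.63, 10.04 and 9.99 on oxaliplatin replicates 1 to 4. Every oxaliplatin array was below every control array, with oxaliplatin replicate 1 just below control replicate 4 and oxaliplatin replicate 2 the lowest of the 8. The means were 10.34 ± 0.14 and 9.95 ± 0.23 (SD, n = 4 each), a difference of -0.39 ± 0.14 that did not pass (adjusted p = 0.0793, limma). The 95% interval of the difference ran from -0.69 to -0.08, before any adjustment for the number of genes. The catalogue probe gave -0.27 (adjusted p = 0.184 over probes, limma). The call depended on the scaling, since the difference passed after quantile normalization (-0.57, adjusted p = 0.0201, limma), in the values of the series matrix (-0.56, adjusted p = 0.0206) and with the median of all probes as the scale (-1.01, adjusted p = 0.00072).

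Hamp2, the neighbouring copy, varied far more. Its levels were 6.36, 7.05, 7.38 and 2.63 on control replicates 1 to 4, and 4.27, 6.46, 5.66 and 4.92 on oxaliplatin replicates 1 to 4. The controls alone spanned 26.7-fold, because control replicate 4 was far below the other 3, whereas the controls spanned 1.22-fold for Hamp. Among controls the order was the same for both genes, with replicate 4 lowest and replicate 3 highest, but among oxaliplatin arrays it was reversed at the ends, since replicate 2 was lowest for Hamp and highest for Hamp2. The Hamp2 difference was -0.53 ± 1.01 (adjusted p = 0.746, limma), with an interval from -2.84 to 1.79 that holds large changes in either direction. Without control replicate 4 it was -1.60 (adjusted p = 0.0695), and without control replicate 3 it was -0.02. The custom probe gave -0.29 and showed the same low value on control replicate 4, at 1.89 against 5.498 to 6.352 on the other controls.

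Bmp6, the ligand upstream of Hamp, fell. Its levels were 1.86, 2.05, 2.21 and 1.47 on control replicates 1 to 4, and 0.62, 0.92, 1.16 and 1.12 on oxaliplatin replicates 1 to 4. All oxaliplatin arrays lay below all controls, the nearest pair being control replicate 4 and oxaliplatin replicate 3. The difference was -0.95 ± 0.19 (adjusted p = 0.0151, limma), or 1.93-fold lower, with means of 1.90 ± 0.32 and 0.95 ± 0.25 (SD, n = 4 each). The custom probe, above background on 7 of 8 arrays, gave -0.89 (adjusted p = 0.0318 over probes, limma), and a further catalogue probe was above background on 0 of 8 arrays. All 8 markers of sinusoidal endothelial cells were measured, and their mean level overlapped between the groups, at 4.999 to 5.185 on control and 4.71 to 5.14 on oxaliplatin arrays. Of these 8, 1 fell, where 11.6% of all genes tested passed as lower. That was Lyve1, a hyaluronan receptor, by 1.49 ± 0.26 (adjusted p = 0.00993, limma). The part of sinusoidal endothelial cells in the Bmp6 difference was not tested.

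Id1, a transcriptional inhibitor that BMP signals induce, had the largest difference of the 10 genes. Levels were 5.58, 5.81, 6.19 and 4.40 on control replicates 1 to 4, and 3.18, 3.21, 3.86 and 3.82 on oxaliplatin replicates 1 to 4. The groups were apart although the controls spanned 3.46-fold, with control replicate 4 nearest to the oxaliplatin arrays. Id1 fell by 1.97 ± 0.37 (adjusted p = 0.0128, limma), or 3.93-fold, from 5.49 ± 0.77 to 3.52 ± 0.37 (SD, n = 4 each). Its 3 probes gave -2.003, -1.908 and -1.974, each with an adjusted p of 0.0114 or less over probes (limma).

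The calls of Bmp6 and Id1 were lost with the run name as a covariate (-0.76, adjusted p = 0.0783, and -1.65, adjusted p = 0.0685, limma) and on the 6 arrays of the first run name alone (adjusted p = 0.104 for each). Both genes were lowest on oxaliplatin replicates 1 and 2, which carry the other run name, and the part of the run in these differences was not tested.

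Smad7, the inhibitory SMAD that feeds back on BMP receptors, did not pass. Its levels were 4.50, 5.30, 4.99 and 3.11 on control replicates 1 to 4, and 3.52, 3.37, 3.66 and 3.73 on oxaliplatin replicates 1 to 4. Control replicate 4 was the lowest of all 8 arrays, so the groups overlapped, while the other 3 controls were above every oxaliplatin array. The difference was -0.90 ± 0.42 (adjusted p = 0.161, limma), from 4.47 ± 0.97 to 3.57 ± 0.16 (SD, n = 4 each). Without control replicate 4 it was -1.36 and passed (adjusted p = 0.00892, limma). It also passed with the median of all probes as the scale (-1.53, adjusted p = 0.00711), so this call depends on 1 library and on the scaling.

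**Figure D2:**
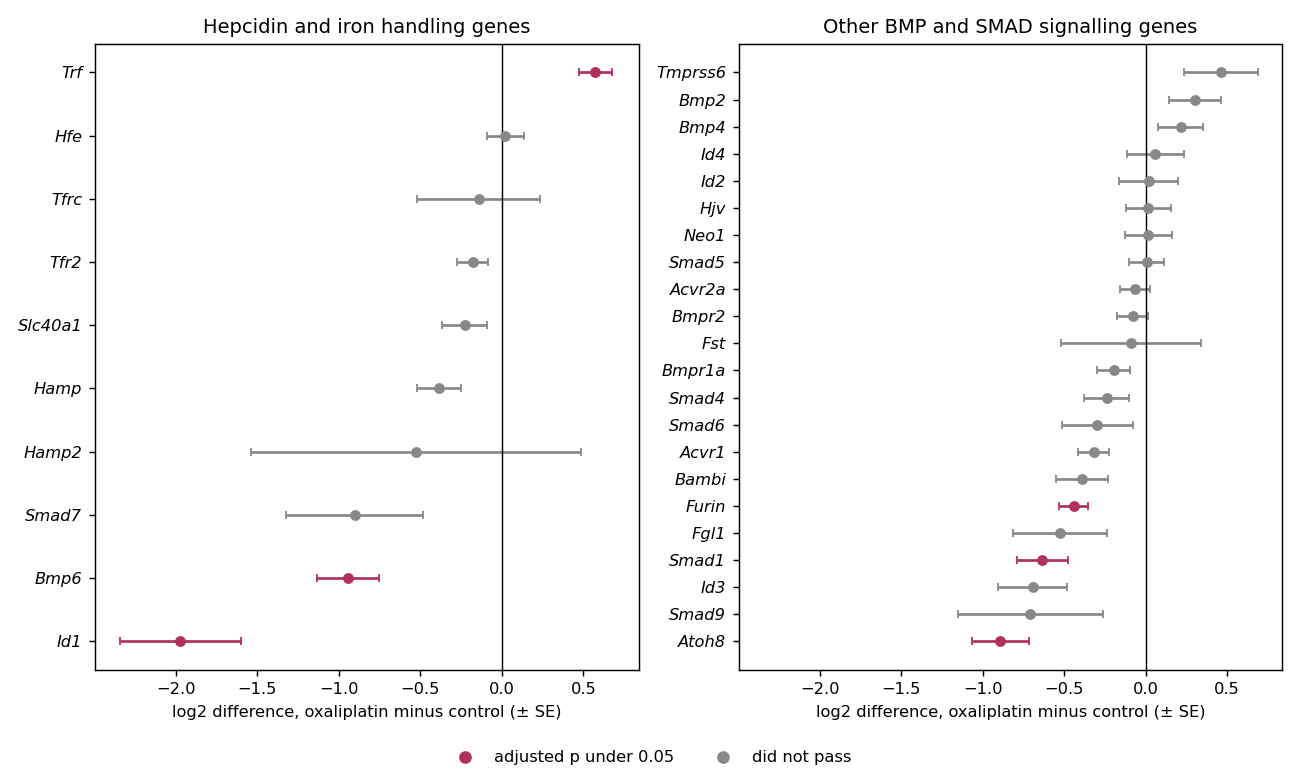
Log2 difference, oxaliplatin minus control, with its SE (horizontal axis) for the 10 genes (left) and for 22 other BMP and SMAD signalling genes (right). Coloured points passed at an adjusted p under 0.05; Trf lies to the right of 0 and Bmp6, Id1, Furin, Smad1 and Atoh8 lie to the left.

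Tfr2 and Hfe, the hepatocyte proteins that tie the BMP signal to transferrin, did not pass. Tfr2 levels were 8.99, 8.82, 8.90 and 8.88 on control replicates 1 to 4, and 8.83, 8.78, 8.68 and 8.58 on oxaliplatin replicates 1 to 4. The groups touched, with oxaliplatin replicate 1 just above control replicate 2, and the difference was -0.18 ± 0.09 (adjusted p = 0.202, limma; interval -0.40 to 0.03). Hfe was 5.66, 5.95, 5.94 and 5.71 on control replicates 1 to 4, and 5.83, 6.03, 5.77 and 5.72 on oxaliplatin replicates 1 to 4. The Hfe groups lay over each other, with a difference of 0.02 ± 0.12 (adjusted p = 0.911; interval -0.24 to 0.29), and its probes gave opposite signs, 0.022 and -0.215, the latter at an adjusted p of 0.341 over probes. Among the 9 genes with more than 1 tested probe, Hfe was the exception, as the probes of the other 8 gave 1 sign.

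Tfrc, the transferrin receptor that takes iron into most cells and is abundant on red cell precursors, was 3.67, 3.68, 4.43 and 5.12 on control replicates 1 to 4. It was 4.81, 4.11, 3.78 and 3.62 on oxaliplatin replicates 1 to 4. The groups overlapped fully, with a difference of -0.14 ± 0.38 (adjusted p = 0.816, limma). The interval from -1.01 to 0.72 leaves room for a change of either sign. Control replicate 4, the highest array for Tfrc, also had the highest erythroid marker mean of the controls, 5.51 against 4.08 to 4.57, inside the oxaliplatin range of 5.42 to 6.13. The oxaliplatin arrays did not share this pattern. Replicate 1, the highest of them for Tfrc at 4.81, had their lowest erythroid marker mean, 5.42.

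Of 10 erythroid markers, 7 were measured above the filter; 4 were higher, among them Alas2, the erythroid enzyme that starts haem synthesis, by 2.39 ± 0.33 (adjusted p = 0.00504, limma), and the globin gene Hbb-bs by 1.94 ± 0.44 (adjusted p = 0.0221). The erythroid transcription factor Klf1 was lower by -0.61 ± 0.12 (adjusted p = 0.0141, limma). Among all genes tested, 6.99% passed as higher and 11.6% as lower. Erfe, the hormone of red cell precursors that lowers hepcidin, was above background on 0 of 8 arrays by both of its probes. The part of erythroid cells in the iron gene differences was not tested.

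**Figure D3:**
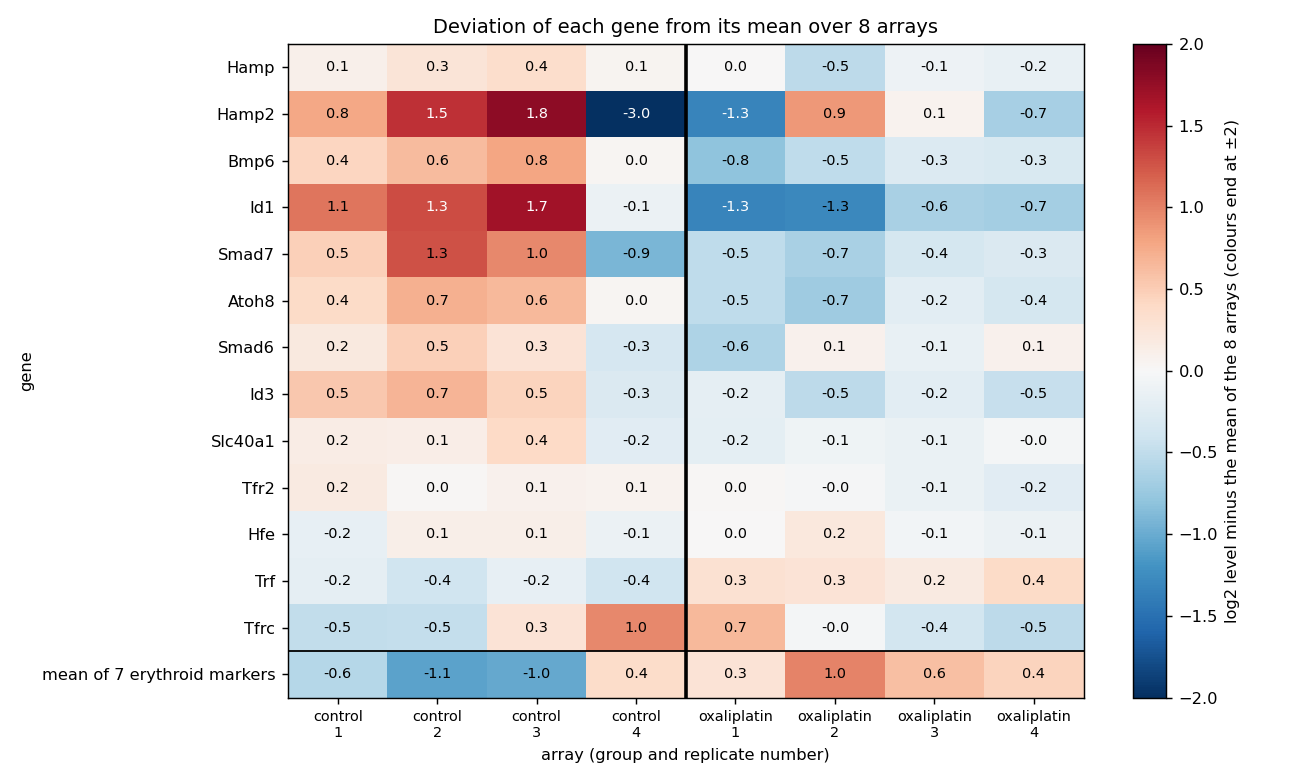
Level of each gene on each array minus its mean over the 8 arrays (log2; rows are the 10 genes, 3 other BMP target genes and the mean of 7 erythroid markers, columns are arrays by group and replicate). Bmp6, Id1, Smad7 and Atoh8 are above their means on control replicates 1 to 3, while control replicate 4 is near or below the mean and has an erythroid marker mean of 5.51, above the other controls.

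Trf, which encodes transferrin, the iron carrier that hepatocytes secrete, rose by its brightest probe. Levels were 10.04, 9.81, 10.04 and 9.81 on control replicates 1 to 4, and 10.52, 10.48, 10.39 and 10.58 on oxaliplatin replicates 1 to 4. All oxaliplatin arrays were above all controls, and each group spanned less than the gap between the means. The difference was 0.57 ± 0.10 (adjusted p = 0.0101, limma), or 1.49-fold, from 9.92 ± 0.13 to 10.50 ± 0.08 (SD, n = 4 each), but it was -0.05 with the median of all probes as the scale. The catalogue probe did not show it: its levels were 10.34, 10.12, 10.09 and 9.93 against 10.08, 10.37, 9.93 and 10.22, so the groups overlapped, with a difference of 0.03 (adjusted p = 0.886 over probes). The files place that probe at chr9:103117569-103118184 (mm9, minus strand), an interval of 616 bases, and give no position for the custom probe. With the mean over probes the difference was 0.30 and did not pass (adjusted p = 0.0884), so the rise of Trf rests on 1 of 2 probes. On the 6 arrays of the first run name it was 0.57 (adjusted p = 0.0763).

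Some other hepatocyte transcripts rose with it. The mean of 6 hepatocyte markers was 9.74 to 9.94 on oxaliplatin and 9.429 to 9.601 on control arrays, and 3 of the 6 rose: albumin (Alb) by 0.56 ± 0.09 (adjusted p = 0.00708, limma), Ttr by 1.29 and Apoa2 by 0.42. The other 3 did not pass, with Tat at -0.57 (adjusted p = 0.11), Apoa1 at -0.02 and Cps1 at -0.005. Hamp, also a hepatocyte transcript, lay in the other direction, at -0.39. Over all genes tested 6.99% passed as higher. The markers were not refitted under the other scalings. With the median of all probes as the scale the all-gene median shifted by -0.63, which is larger in size than the Alb and Apoa2 differences. The part of the hepatocyte share in the Trf difference was not tested.

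Slc40a1, the exporter that hepcidin removes, is strong in Kupffer cells. Its levels were 8.11, 8.09, 8.34 and 7.72 on control replicates 1 to 4, and 7.76, 7.86, 7.82 and 7.91 on oxaliplatin replicates 1 to 4. Control replicate 4 was again the lowest of all 8 arrays, below an oxaliplatin group that spanned only 1.11-fold. The difference was -0.23 ± 0.14 (adjusted p = 0.257, limma; interval -0.54 to 0.08), and without control replicate 4 it was -0.34 (adjusted p = 0.0566) but without control replicate 3 it was -0.14 (adjusted p = 0.511). Both probes gave nearly the same value, -0.229 and -0.225. The 7 Kupffer cell markers had overlapping mean levels, 4.91 to 5.55 on control and 4.87 to 6.15 on oxaliplatin arrays. Of their differences 6 were above 0 and 1 below, with a median of 0.59. Folr2 was higher by 0.91 ± 0.22 (adjusted p = 0.0259, limma), while Clec4f (0.59, adjusted p = 0.0623) and Vsig4 (0.65, adjusted p = 0.0711) did not pass. Marco, the 1 below 0, differed by -2.26 ± 0.63 (adjusted p = 0.0406).

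**Figure D4:**
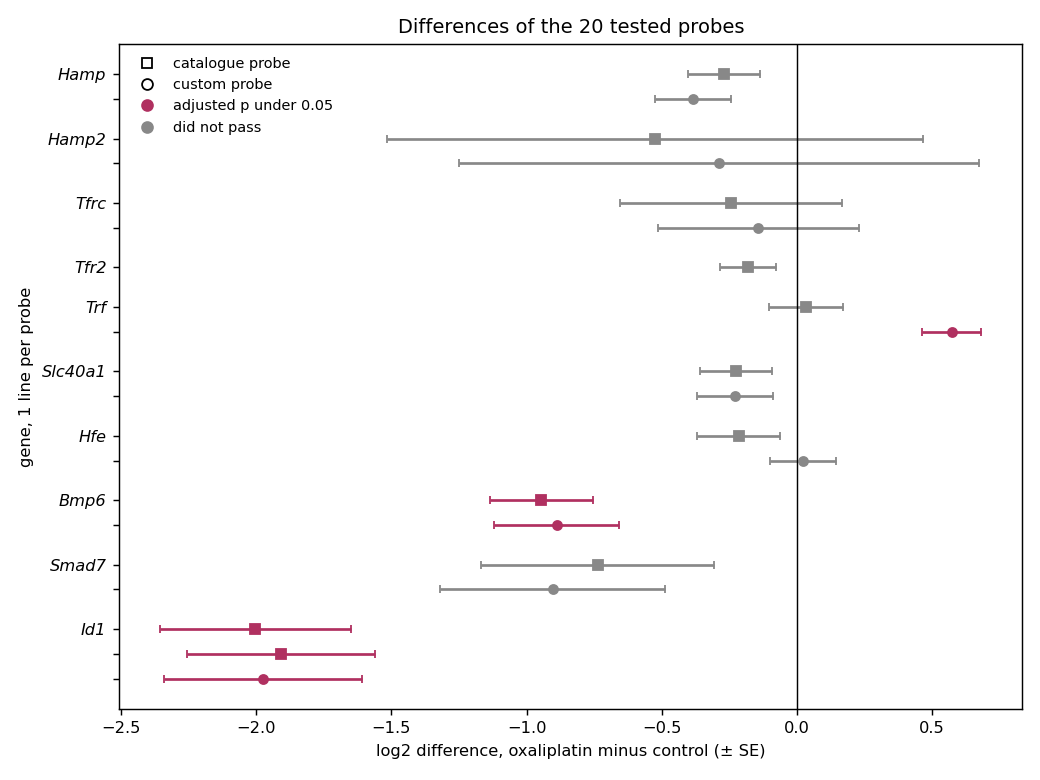
Log2 difference, oxaliplatin minus control, with its SE (horizontal axis) for each of the 20 tested probes of the 10 genes, squares for catalogue and circles for custom probes, coloured where the adjusted p over 54636 probes was under 0.05. The 3 Id1 probes and both tested Bmp6 probes lie together below 0, while the Trf probes differ, at 0.03 and 0.57.

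Of the 20 probes tested, 1 was called higher and 5 lower, against 18.4% of all 54636 probes called in either direction (limma). The files give mm9 positions for the 12 catalogue probes. The catalogue probes that were called lie at chr13:38591479-38591538 (plus strand) for Bmp6 and, for Id1, at chr2:152563036-152563095 and chr2:152563046-152563105 (plus strand). The Id1 positions overlap, so these probes share most of their sequence.

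The order of the control animals was as follows, as a description. Control replicate 4 was the lowest control for 6 of the 10 genes (Hamp, Hamp2, Slc40a1, Bmp6, Smad7 and Id1), against 38.9% of all genes. Control replicate 3 was the highest control for 6 of the 10, against 26.6% of all genes. Hamp, Hamp2, Bmp6 and Id1 had one order among controls, with replicate 4 lowest, then 1, 2 and 3, as had 7.52% of all genes. Whether these genes vary together was not tested, and control replicate 4 is the array that stood apart. On the oxaliplatin arrays these 4 genes did not share an order, with replicate 1 lowest for Hamp2, Bmp6 and Id1 and replicate 2 lowest for Hamp.

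By the highest Pearson correlation of log2 levels over the 8 arrays, the 5 genes most like Hamp among 13902 others were Dgkk (r = 0.976), Mynn (0.973), Pfkp (0.969), Fbxo46 (0.966) and Zfp512b (0.961). All 5 had negative differences, from -0.32 for Mynn to -0.90 for Dgkk, and after the group means were taken out their correlations with Hamp were 0.911 to 0.983. These values come from 8 arrays and the best of many genes, and are given as a description.

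The wider BMP and SMAD list had 22 of 23 genes tested, of which 0 rose, 3 fell and 19 did not pass, with a median difference of -0.14. That is 13.6% called, where 18.6% of all genes tested passed, 11.6% as lower, so the count says nothing particular about the list. Furin, a protease that cuts hepcidin and hemojuvelin precursors, fell by 0.44 ± 0.09 (adjusted p = 0.0165, limma), and its groups did not overlap. Atoh8, a transcription factor induced by BMP signals and iron, fell by 0.89 ± 0.17 (adjusted p = 0.0146), with levels of 6.31 to 6.99 on control and 5.57 to 6.06 on oxaliplatin arrays. Smad1, which carries the BMP signal to the nucleus, fell by 0.63 ± 0.16 (adjusted p = 0.0287), and its other probes gave -0.89 and -0.74. The Smad1 call was lost in 11 of 21 alternatives, among them without control replicate 3 or any 1 of the 4 oxaliplatin arrays (-0.61 to -0.65, adjusted p of 0.056 to 0.0778). The calls of Furin and Atoh8 were lost with the run name as a covariate (adjusted p = 0.0849 and 0.0764) and on the first run name alone (adjusted p = 0.106 and 0.107), and the other Furin probe gave -0.21 (adjusted p = 0.228 over probes). The targets Id3 (-0.69, adjusted p = 0.0549) and Smad6 (-0.30, adjusted p = 0.355) were not called, and the receptor Acvr1 (-0.32, adjusted p = 0.0505) also missed the threshold. The other Acvr1 probe gave -0.02 (adjusted p = 0.903 over probes, limma). Hemojuvelin (Hjv) differed by 0.02 (adjusted p = 0.944), and Tmprss6, the protease that cleaves hemojuvelin and holds hepcidin down, by 0.46 (adjusted p = 0.176).

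The interleukin-6 and STAT3 list had 11 of 14 genes tested, of which 1 rose, 1 fell and 9 did not pass, with a median of -0.39. That is 18.2% called, near the 18.6% of all genes tested, so the count says nothing particular about the list. Il1b, an inflammatory cytokine, rose by 1.83 ± 0.40 (adjusted p = 0.0203, limma), from levels of 0.88 to 1.54 to levels of 2.36 to 4.11. This call was lost in 4 of 21 alternatives, among them without oxaliplatin replicate 4 (1.68, adjusted p = 0.0547). Il6ra, the interleukin-6 receptor, fell by 0.91 ± 0.23 (adjusted p = 0.0315), a call lost in 9 of 21 alternatives, among them without control replicate 3 or oxaliplatin replicate 2, 3 or 4 (adjusted p of 0.0765 to 0.0797), and another of its probes gave -0.30 (adjusted p = 0.416 over probes). Socs3, the feedback inhibitor of STAT3 signalling, differed by -1.52 ± 0.81 (adjusted p = 0.211) with levels from 3.61 to 7.05 on oxaliplatin arrays alone. The acute phase gene Saa2 differed by -0.85 (adjusted p = 0.207), and by -0.35 without oxaliplatin replicate 4, and Stat3 by -0.39 (adjusted p = 0.319). The Il6 probes were above background on at most 3 of 8 arrays and were not tested.

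Iron storage, transport and sensing had 24 of 27 genes tested, of which 0 rose, 2 fell and 22 did not pass, with a median of -0.03. That is 8.33% called, below the 18.6% of all genes tested. Ncoa4, the receptor that delivers ferritin for breakdown, fell by 0.89 ± 0.20 (adjusted p = 0.0213, limma), from 6.53 to 7.49 on control to 5.98 to 6.08 on oxaliplatin arrays. Its other 3 probes gave -0.53, -0.81 and -1.08, of which the last passed over probes (adjusted p = 0.0296). Lcn2, a siderophore-binding protein that is also an acute phase product, fell by 3.55 ± 0.93 (adjusted p = 0.0339), with oxaliplatin levels of 8.26, 7.27, 4.11 and 4.13 on replicates 1 to 4 against 9.02 to 9.96 on controls. The Ncoa4 call was lost in 8 of 21 alternatives, among them without control replicate 3 or oxaliplatin replicate 2, 3 or 4 (adjusted p of 0.0517 to 0.06). The Lcn2 call was lost in 7, among them without any 1 of the controls and without oxaliplatin replicate 3 or 4 (adjusted p of 0.0542 to 0.083). With the run name as a covariate Lcn2 was at -5.37 (adjusted p = 0.00164), and its 2 higher oxaliplatin arrays are those of the other run name. The ferritin heavy chain gene Fth1 (0.30, adjusted p = 0.0996), the importer Slc11a2 (0.66, adjusted p = 0.0716) and the mitochondrial iron importer Slc25a28 (-0.39, adjusted p = 0.0508) did not pass, but Slc11a2 passed without control replicate 4 (0.85, adjusted p = 0.0182). The iron regulatory protein genes Aco1 (0.01) and Ireb2 (-0.25, adjusted p = 0.15) did not pass either.

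All 21 genes of haem synthesis, transport and breakdown were tested, of which 0 rose, 2 fell and 19 did not pass, with a median of -0.06. That is 9.52% called, below the 18.6% of all genes tested. Fech, which puts iron into haem, fell by 0.37 ± 0.10 (adjusted p = 0.0407, limma), a call lost in 14 of 21 alternatives, among them without control replicate 2 or 3 or any 1 of the oxaliplatin arrays (adjusted p of 0.0688 to 0.103). Its other probes gave -0.24 (adjusted p = 0.265 over probes) and -0.42 (adjusted p = 0.0383). Hmox2, the constitutive haem oxygenase, fell by 0.71 ± 0.18 (adjusted p = 0.0305), a call lost in 9, among them without control replicate 3 or oxaliplatin replicate 1, 3 or 4 (adjusted p of 0.0651 to 0.0727). The biliverdin reductase genes Blvrb (-0.66, adjusted p = 0.0705) and Blvra (-0.34, adjusted p = 0.0779) did not pass, although their groups did not overlap, and Blvrb passed without control replicate 1 (-0.81, adjusted p = 0.0443). The inducible Hmox1 differed by -0.58 (adjusted p = 0.153), and the plasma carriers Hp and Hpx, which bind haemoglobin and haem, by 0.01 and 0.07. Over the 4 lists together 1 of 78 tested genes rose and 8 fell, 11.5% in all, which is below the 18.6% of all genes tested.

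**Figure D5:**
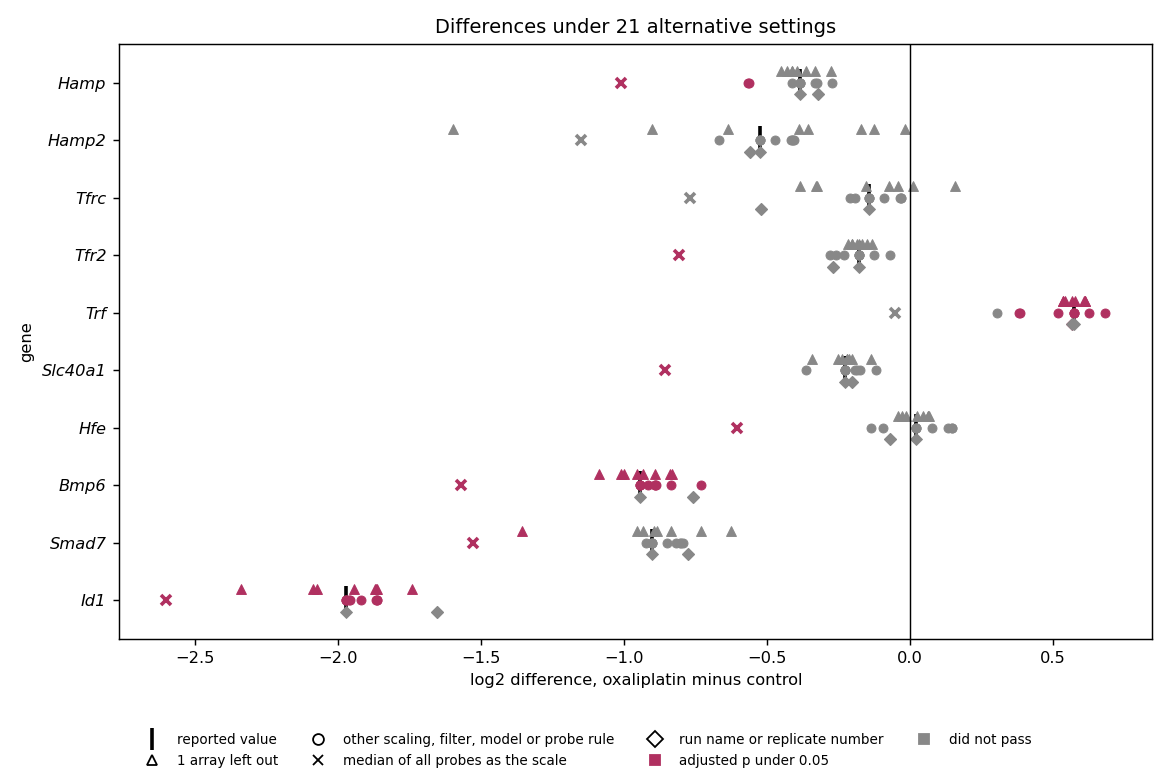
Log2 difference, oxaliplatin minus control (horizontal axis), of each of the 10 genes as reported (black bars) and under 21 alternative settings, coloured where the adjusted p was under 0.05. Hamp, Hamp2, Tfr2, Slc40a1, Bmp6, Smad7 and Id1 stay below 0 in all 21, and with the median of all probes as the scale (crosses) every gene lies to the left of its reported value, Trf at -0.05.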

How the data were processed

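RNA from 8 mouse livers was read on Agilent one-colour arrays. Per the file headers, scans were extracted with Feature Extraction 12.0.3.1 on an mm9 design, while the submitters' processing notes list limma and version 10.7 of Agilent Feature Extraction. The deposited processed signal is a linear intensity, background-subtracted within the array and not scaled between arrays, per the file headers; mean and background signals are deposited as intensity too. Flags of 0 or 1 in the deposited files mark spots above background, saturated or outlying. The deposited series matrix holds log2 values, whose scaling between arrays is not stated; across probes they correlated with each array's own log2 signal at r of 0.9964 to 0.9998, and their column medians were 5.76 to 5.83. 

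From the log2 of the processed signal, the 75th percentile of its array was subtracted. Outlier spots were then left out, none of them a spot of the 10 genes, and probes well above background on at least 4 of 8 arrays were kept. Of 48257 probes with a transcript accession 47985 were named through the RefSeq table (GRCm38.p6), and 147 kept the file's name. Each gene was represented by its brightest probe. The comparison used limma 3.58.1 (lmFit, eBayes) under R 4.3.3, with 6 residual and 2.37 prior degrees of freedom. Intervals are 95% intervals of the fit. Reading and plotting used Python 3.11.15 with pandas 2.3.3, numpy 2.4.6 and matplotlib 3.10.9. On simulated data with 200 of 13903 genes changed, the test found 63% of those moved by 1 on the log2 scale and 92% of those moved by 2, with 6 false calls among 161. The simulated noise was independent and held no slide or run effect, and 200 genes changed where 2590 passed in the data. These rates therefore need not hold for the data here.

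The 10 genes, the lists and the tests were chosen with earlier results of these data known. Named were all 10 genes, up to 4 genes of each pathway list with the smallest adjusted p (all that passed where 5 or fewer did) and the 5 genes most like Hamp; other pathway genes and the markers were named after their values were seen. Alternatives covered background correction, scaling, filter, variance model, probe rule, run name, each array left out and a replicate block. The median over probes above the filter is an addition made after seeing the data. With 1 group on each slide, no slide effect can be estimated.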

Additional observations from a re-analysis of the deposited data

Results flagged for a closer look

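Among 52 groups of 4 arrays examined for the 10 genes and the named pathway genes, 1 held a sample far from its group. Il6ra on oxaliplatin replicate 1 was at a log2 level of 0.92, while the other 3 oxaliplatin arrays were at 0.41 to 0.48, and the gap took 0.858 of the group's range. Chance flags about 1 in 20 groups.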

How the results depend on the processing

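Each difference of the 10 genes and of 16 named pathway genes was recomputed under 21 alternatives. Hamp, Hamp2, Tfr2, Slc40a1, Bmp6, Smad7 and Id1 kept a negative difference in all of them. The count of the 10 genes called higher, 1 as reported, was 0 with the median of all probes as the scale, with the mean over probes, on the first run name alone and with the replicate block. The count called lower, 2 as reported, was 7 with the median of all probes and 0 with a run name covariate, on the first run name alone and with the replicate block. Pathway genes called higher, 1 as reported, were 2 with the percentile over detected probes, 3 without the filter, 3 with the mean over probes, and 0 with a run name covariate, the first run name alone and the replicate block, and 0 to 2 with an array left out. Pathway genes called lower, 8 as reported, were 15 after normexp, 5 after quantile normalization, 57 with the median of all probes, 5 with the percentile over detected probes, 2 with a run name covariate, 2 on the first run name alone and 0 with the replicate block. With an array left out they were 2 to 8; the count was 2 without control replicate 3, oxaliplatin replicate 3 or oxaliplatin replicate 4. Trf turned to -0.054 with the median of all probes. Hfe turned to -0.14 after normexp, -0.61 with the median of all probes, -0.10 with the mean over probes and -0.072 both with a run name covariate and on the first run name alone, and it ranged from -0.043 to 0.067 with an array left out. Tfrc ranged from -0.39 to 0.16 with an array left out, at 0.16 without control replicate 4 and 0.01 without oxaliplatin replicate 4. The causes were not tested.

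The median of all probes is set by dim probes and moved the median difference of all genes by -0.63, to 230 higher and 9687 lower calls against 973 and 1617 as reported. The percentile over detected probes moved it by 0.11 (1434 higher, 935 lower). The split was 685 and 2527 after normexp, 1123 and 1123 after quantile normalization, 1125 and 1232 with the median over probes above the filter, and 1078 and 1107 in the series matrix. Same-numbered arrays of the groups deviated with correlations of -0.32 to -0.08, and whether the numbers stand for any shared handling was not tested. With the replicate block 266 genes were higher and 263 lower, and Trf, Bmp6 and Id1 had adjusted p of 0.0592, 0.0554 and 0.0542 (limma). Signal over background limits Bmp6, of whose 3 probes 1 was above background on 0 of 8 arrays, and 4 arrays per group limit every value.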
